A study of Mus musculus with 9 samples.

Results

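Bnip3, Slc2a1, Ldha and Eno1 are 4 genes known to respond to low oxygen, and the arrays carried 7 cDNA clones of them among 15294 clones (11140 named clones of 7612 genes). The members were all clones whose gene symbol, with older synonyms counted, was one of the 4. These were clone H3136C07 for Bnip3, H3015A08 and H3015G08 for Slc2a1, H3023H12 for Ldha (listed under the older symbol Ldh1) and H3027E09, H3027E07 and H3027E08 for Eno1. A gene with several clones is described first by its brightest clone, H3015A08 for Slc2a1 and H3027E09 for Eno1.

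Gene expression was compared on 9 two-colour spotted mouse cDNA arrays, each hybridized with the RNA of 2 cell states. Growing C2C12 myoblasts (MB, a mouse muscle precursor line), the same line held for 48 h in suspension in semi-solid medium so that it stopped dividing reversibly (G0 MB), the same line differentiated for 3 days in low serum into myotubes (MT) and fibroblasts arrested in suspension (G0 FB) were paired as G0 MB over MB (3 arrays), G0 MB over G0 FB (2), G0 MB over MT (2) and MT over MB (2). The fibroblasts are NIH 3T3 in the labels and C3H10T1/2 in the methods, and all states are cell lines in culture with no transgene or drug named. For the second of the arrays set against G0 FB, NIH 3T3 also opens the source label of the myoblast channel, whose cell line is given as C2C12. The treatment text, the same for every array, speaks of arrested cells replated to resume growth, a state that no title names. By the methods each pair of states included a biological replicate and a dye reversal, but the labels do not say which arrays come from separate cultures, so p-values measure only the spread between arrays, which may be technical.

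In cells short of oxygen the transcription factor HIF, a pair of a regulated alpha subunit and ARNT, escapes degradation and binds short DNA motifs beside its target genes. Its targets take up glucose and turn it into lactate in place of mitochondrial oxidation: Slc2a1 encodes the glucose transporter GLUT1, Eno1 the glycolytic enzyme enolase 1, and Ldha the lactate dehydrogenase subunit that turns pyruvate into lactate. Bnip3 encodes a BCL2-family protein of the outer mitochondrial membrane that marks mitochondria for removal by autophagy (mitophagy).

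The 4 genes lie on 2 mouse chromosomes in RefSeq (GRCm38.p6), Slc2a1 at chr4:119108745-119137330, Eno1 at chr4:150236708-150248879, Ldha at chr7:46842274-46855627 and Bnip3 at chr7:138890836-138909506. The core of the HIF motif, ACGTG on either strand, was searched in the 250 bases before each RefSeq start, and 16.6% of all 32851 such windows (5444) held it. The stretches that held it are shown because the genes are grouped by their response to low oxygen. They are written 5′ to 3′ along the gene's strand, with matches in capitals, and CACGTG holds overlapping matches on both strands, so that it counts as 2.

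Bnip3 (minus strand, chr7:138909594-138909629): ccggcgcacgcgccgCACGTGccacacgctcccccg
Slc2a1 (plus strand, chr4:119108694-119108728): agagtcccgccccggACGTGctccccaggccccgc
Ldha (plus strand, chr7:46845644-46845789): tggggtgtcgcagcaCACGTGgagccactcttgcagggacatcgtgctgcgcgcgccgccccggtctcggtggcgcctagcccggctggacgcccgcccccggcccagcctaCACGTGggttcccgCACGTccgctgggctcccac

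Counted this way, the Bnip3 window held 2 matches, the Slc2a1 window 1 and the first of the Ldha windows 5, while the second Ldha window and the 3 Eno1 windows held 0. The Slc2a1 match began 36 bases before the start. A match describes the letters of a window and no more.

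The direction of 3 of the 4 comparisons was not settled. Read with the dyes as labelled, the MT over MB arrays ran against each other (r = -0.49 over all clones), and the arrays that set G0 MB against MT or G0 FB had the opposite sign to the order of their titles in the table of values deposited by the authors. Values are therefore given by the labelled dyes and, where the sign turns, also in title order, which turns array 1 of MT over MB and all arrays that set G0 MB against MT or G0 FB. G0 MB over MB had the same direction in both. Both arrays of MT over MB are labelled with MT in Cy5, so the labels give no dye reversal there, and in the table of values their columns held each other's arrays. Array numbers here follow the sample titles. Arrays 1 and 2 of G0 MB over MB resembled each other (r = 0.68), and array 3, on another clone layout, stood apart from them (r = 0.20 with each). On single arrays, 36.4% to 61.1% of clone spots exceeded the detection limit in at least 1 channel. Proliferation markers were lower in G0 MB than in MB (11 of 12 below 0, median log2 ratio -2.39). Of 18 sarcomere markers 3 were on the arrays. For MT over MB by the labelled dyes, Tpm2, a tropomyosin of muscle, read -3.42 and 2.00, and Mylpf, a myosin light chain of fast muscle, -4.68 and 12.7, the last with its weaker channel at the limit. In title order both were higher in MT on both arrays, the 3 sarcomere markers had a median of 2.71 and 8 of 9 proliferation markers were below 0, against 0.44 and 5 of 9 by the labelled dyes. For G0 MB over MT Tpm2 read 2.23 and 1.78 by the labelled dyes, higher in G0 MB, and all 3 sarcomere markers were above 0, the reverse of title order. Of 10 fibroblast markers 3 had values to test, and for G0 MB over G0 FB 1 was above 0 and 2 below (median -0.52), the reverse in title order. In that comparison 2 sarcomere markers had values to test, both below 0 by the labelled dyes (median -1.34) and above 0 in title order (median 1.34). None of 5 myogenic lineage markers, Pax7 among them, was on the arrays, so the myoblast label could not be checked by them.

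In G0 MB over MB the 4 genes did not move together. Bnip3 was far higher in G0 MB on every array, Slc2a1 was higher on arrays 1 and 2 and level on array 3, Ldha was near level, and Eno1 was below 0 on every array. The values of this comparison were known when the genes were chosen, so they are a description and carry no test. In these bulk cultures fewer cells of a kind and less RNA per cell cannot be told apart.

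Bnip3 was at least 5.90-fold higher in G0 MB by the mean of the bounds on the 3 arrays, so that the bound of a single array can be lower. Its MB signal was below detection on all 3 arrays, at 0.489, 0.665 and 0.554 times the limit, against 4.19, 4.73 and 2.40 times the limit for the G0 MB channel, so the fold is a bound that takes the limit as the MB signal. The log2 ratios as deposited, which rest on that dim signal, were 3.59, 3.57 and 3.05 on the 3 arrays (mean 3.40), and all 3 arrays put Bnip3 high in G0 MB. Over all 6903 clones tested, limma called 0.275% higher and 0.116% lower in G0 MB (1.51% and 1.45% with the spread of title order), where a call was an adjusted p under 0.04 and a mean past 1.6-fold. Since this comparison served to choose the members, no call is given for them in it.

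Slc2a1 clone H3015A08 read 3.08, 2.46 and -0.13, with a mean of 1.80 and an SE of 0.58. Arrays 1 and 2 were far from 0, and array 3 lay just below it. The mean was 2.77 without array 3. Clone H3015G08 read 1.03, 2.50 and -0.15, a mean of 1.13 (SE 0.48) that rose to 1.76 without array 3 and dropped to 0.44 without array 2. Both clones thus lay above 0 on arrays 1 and 2 and just below it on array 3. They differed from each other by 2.05 on array 1 but by only 0.03 and 0.02 on arrays 2 and 3. On array 3 the G0 MB channel of H3015A08 was at 1.57 times its limit, against 9.64 and 12.2 times on arrays 1 and 2. The part that this dimmer signal has in the lower ratio was not tested.

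Ldha read -0.50, 0.32 and -0.29, a mean of -0.16 with an SE of 0.42. The arrays fell on both sides of 0. Both channels were at least 4.60 times their limits on every array of the series, for Ldha and for Eno1 alike. Eno1 clone H3027E09 read -0.89, -0.28 and -0.94, a mean of -0.70 (SE 0.46). Clone H3027E07 had a mean of -0.59 and clone H3027E08 one of -1.12. All 3 clones of Eno1 were below 0 on all 3 arrays, as were 27.9% of the clones tested, while 21% were above 0 on every array as Bnip3 was. Among the 6903 clones, 3701 had a higher mean than Ldha and 5199 a higher mean than H3027E09.

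**Figure D1:**
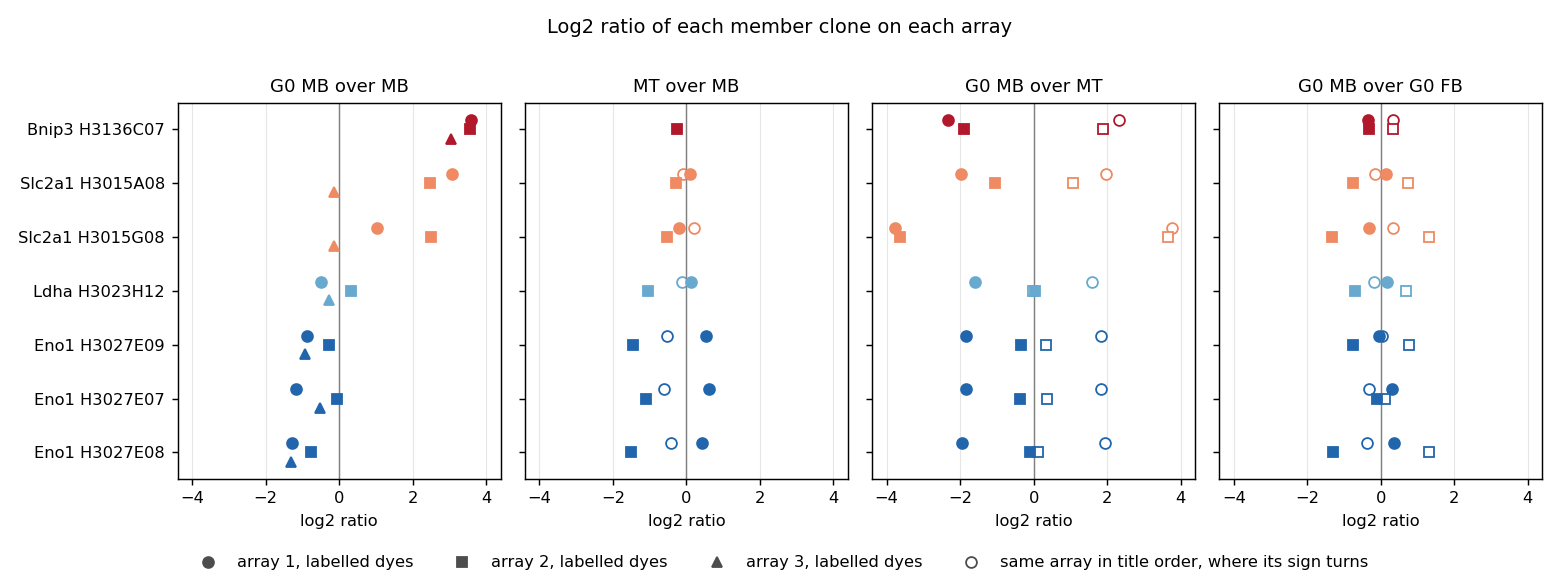
Log2 ratio of the 7 member clones on each of the 9 arrays, in 4 panels by comparison. Filled symbols are values by the labelled dyes, open symbols the same arrays in title order where the sign turns, and the symbol shape gives the array number. For G0 MB over MB, Bnip3 lies between 3.05 and 3.59 on all arrays and the 3 Eno1 clones lie below 0. The Slc2a1 clones lie above 0 on arrays 1 and 2 and just below it on array 3.

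**Figure D2:**
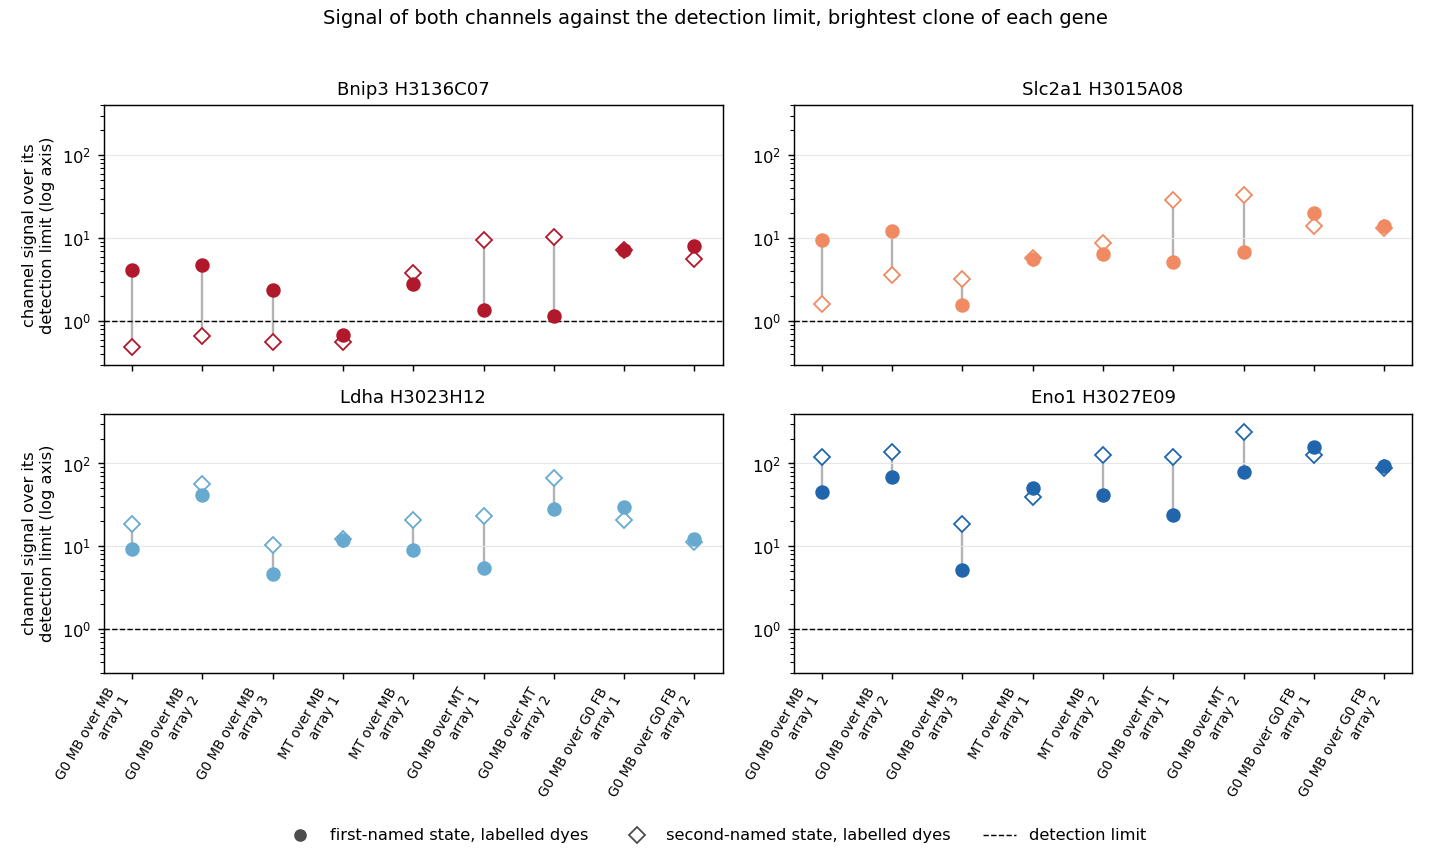
Signal of each channel divided by its detection limit (log axis) for the brightest clone of each gene on all 9 arrays. Circles are the first-named state and diamonds the second-named state by the labelled dyes, and the dashed line is the limit. Limits differ between the dyes of an array, so the gap between the symbols is not the ratio itself; the Bnip3 diamond is under the limit wherever G0 MB was set against MB, and both Bnip3 symbols are under it on array 1 of MT over MB.

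The comparison of MT with MB asked which genes change in differentiation, and no member passed the test in it. Limma called 0% of the 5373 clones tested in either direction by the labelled dyes, with 34 higher and 36 lower clones at an unadjusted p under 0.05, and 0.298% higher and 0.316% lower in title order. Bnip3 had a value on array 2 only, -0.27, because both channels of array 1 were under the limit, and it was not tested. On array 2 its MT and MB channels were at 2.85 and 3.78 times their limits, so the MB signal that was under the limit in every array of G0 MB over MB was above it here. Slc2a1 clone H3015A08 read 0.10 and -0.28 (mean -0.09, SE 0.71), and -0.10 and -0.28 in title order (mean -0.19). Its adjusted p was 1.00 by limma in either reading. Ldha read 0.13 and -1.05, a mean of -0.46 (SE 0.52, adjusted p 1.00), and -0.59 in title order (adjusted p 0.902). For Eno1 clone H3027E09 the arrays read 0.52 and -1.44, a mean of -0.46 (SE 0.56, adjusted p 1.00). In title order both arrays were below 0, with a mean of -0.98 (SE 0.46, adjusted p 0.461), and clones H3027E07 and H3027E08 had means of -0.84 and -0.96. Ldha and Eno1 thus lay below 0 in MT on both arrays in title order, within an error that the test did not exceed.

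G0 MB and MT were set side by side to separate reversible from irreversible arrest, and here Slc2a1 and Bnip3 had the widest ratios of the members. By the labelled dyes limma called 0% of 5134 clones higher and 0.039% lower in G0 MB (213 and 195 clones at an unadjusted p under 0.05), and in title order 0.253% and 0.117%. Slc2a1 clone H3015G08 read -3.77 and -3.65 by the labelled dyes, that is 13.1-fold lower in G0 MB, with an SE of 0.59 and an adjusted p of 0.0651. In title order it was 13.1-fold higher in G0 MB, log2 3.71 (SE 0.58), with an adjusted p of 0.0383, which passed the test. That call was lost without any 1 array of the series other than array 3 of G0 MB over MB, with adjusted p between 0.0444 and 0.133, and was 0.0273 without that array. The 2 arrays differed little from each other (SD 0.09). By the labelled dyes its G0 MB channel was at 1.31 and 1.82 times its limit and its MT channel at 25.4 and 54.2 times. In title order these channels change places. The ratio of H3015G08 thus rests on a weaker channel close to its limit, while that of H3015A08 was at 5.17 and 6.74 times. Clone H3015A08 of the same gene read -1.98 and -1.06, a mean of -1.52 (SE 0.71, adjusted p 0.659), and 1.52 in title order (adjusted p 0.478). The clones of Slc2a1 were on the same side of 0 on both arrays but differed by 1.79 and 2.59 in log2 ratio, more than the highest difference between duplicate spots of a member, 0.84.

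Bnip3 read -2.32 and -1.89 for G0 MB over MT by the labelled dyes, 4.29-fold lower in G0 MB (SE 0.37, adjusted p 0.131), and 2.10 in title order, 4.29-fold higher in G0 MB (SE 0.36, adjusted p 0.0568). Neither reading passed the test. By the labelled dyes the G0 MB channel was at 1.36 and 1.17 times its limit and the MT channel at 9.67 and 10.3 times; in title order these channels change places. In the other comparisons the channel labelled G0 MB was at 2.40 to 4.73 times the limit beside MB and at 7.32 to 8.0 times beside G0 FB. Ldha read -1.59 and 0.03, a mean of -0.78 (SE 0.52, adjusted p 0.856), with the arrays apart by more than the mean. Eno1 clone H3027E09 read -1.83 and -0.34 (mean -1.09, SE 0.56, adjusted p 0.715), and 1.09 in title order (adjusted p 0.454). Its other clones had means of -1.10 and -1.02. Array 1 was farther from 0 than array 2 for all 7 clones.

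**Figure D3:**
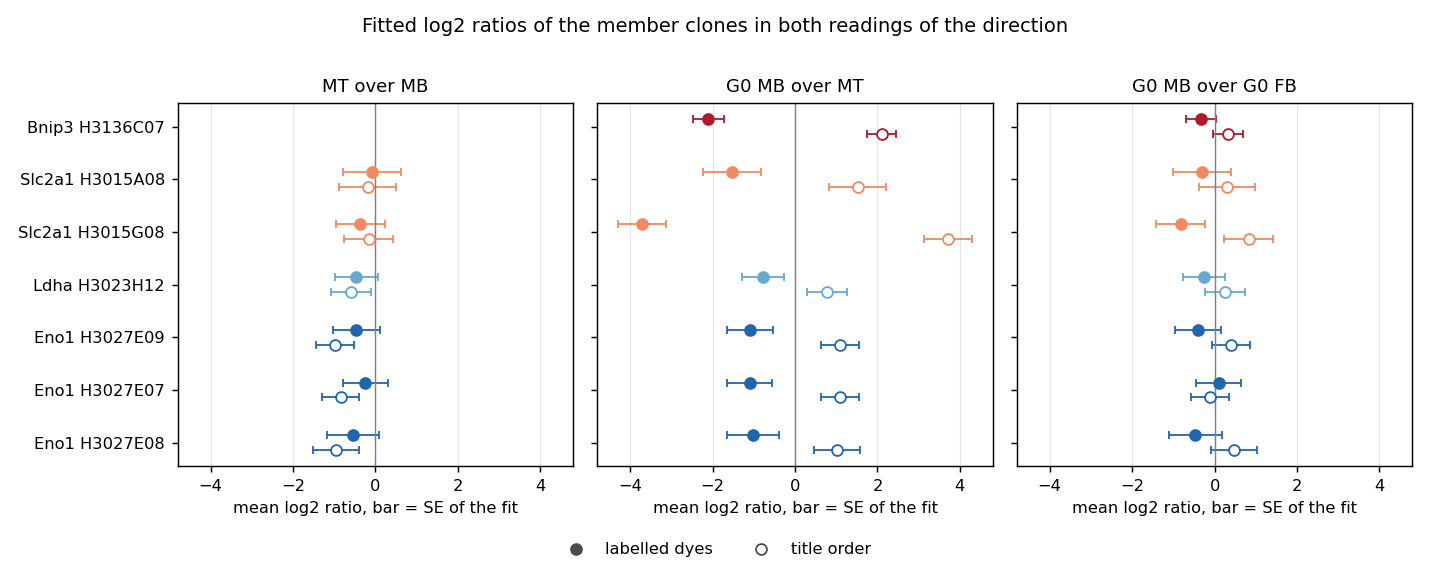
Mean log2 ratio of each member clone from limma's fit, with the SE as the bar, for the 3 comparisons whose direction was not settled. Filled symbols are the labelled dyes and open symbols title order; Bnip3 has no symbol for MT over MB, where 1 array had a value. The bars for G0 MB over G0 FB reach 0 or lie near it for most clones, and those of Slc2a1 clone H3015G08 for G0 MB over MT are farthest from 0, at -3.71 and 3.71.

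The states G0 MB, MB and MT form a loop, so that G0 MB over MT can also be derived from other arrays, by subtracting MT over MB from G0 MB over MB. Derived values share states with the direct ones, and they are given side by side with no test. Bnip3 was left out, because it has only a bound in G0 MB over MB. For Slc2a1 clone H3015A08 the derived value was 1.89 against -1.52 by the labelled dyes, and 1.99 against 1.52 in title order. For Ldha it was 0.30 against -0.78, and 0.43 against 0.78 in title order. For Eno1 clone H3027E09 it was -0.24 against -1.09, and 0.28 against 1.09. Direct and derived values were on the same side of 0 for 3 of 6 clones by the labelled dyes, the 3 clones of Eno1, and for 5 of 6 in title order. The gap between them ran from 0.44 to 5.20 by the labelled dyes and from 0.35 to 2.41 in title order, and was smaller in title order for 4 of the 6 clones. Clones of 1 gene share their RNA and all clones share their arrays, so these counts are a description.

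**Figure D4:**
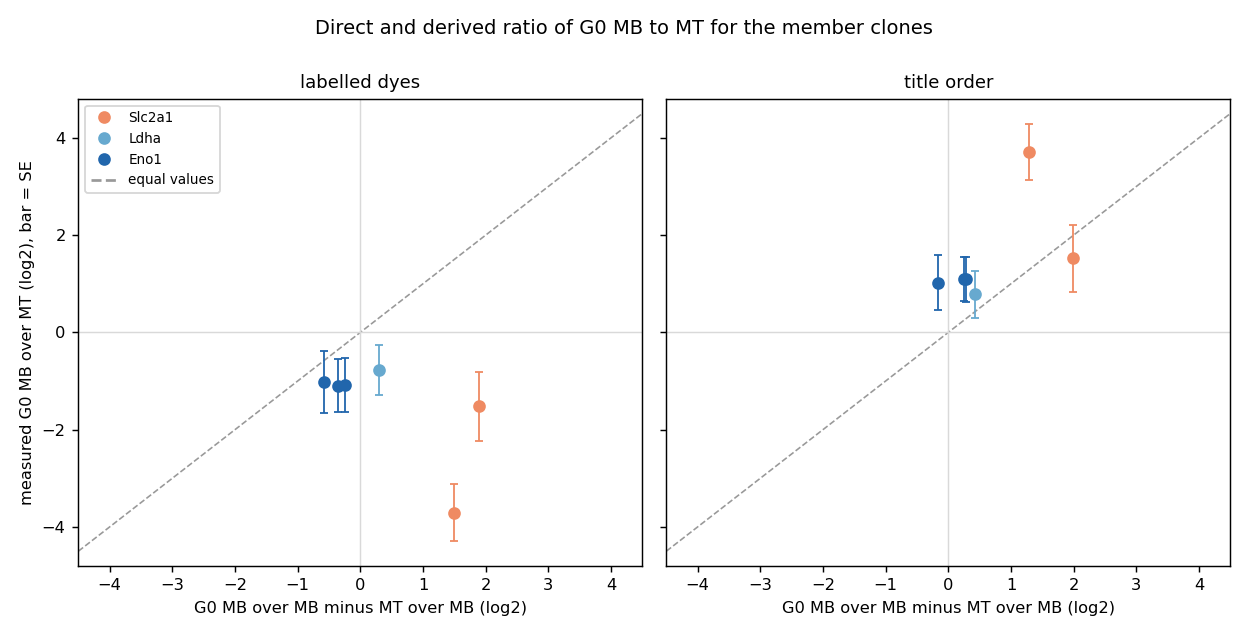
Measured log2 ratio of G0 MB over MT (vertical axis, bar = SE) against the value derived by subtracting MT over MB from G0 MB over MB (horizontal axis), for the 6 member clones of Slc2a1, Ldha and Eno1 by the labelled dyes (left) and in title order (right). The dashed line marks equal values. Both clones of Slc2a1 lie below 0 at the left with derived values above 1, and above 0 at the right.

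G0 MB over G0 FB asked what differs between cell types within arrest, and no member passed the test. By the labelled dyes limma called 0% of 6211 clones higher and 0.0805% lower in G0 MB, 0.0805% and 0% in title order, and none of them was a member. Bnip3 read -0.34 and -0.32, a mean of -0.33 with an SD between arrays of 0.01 and an SE of 0.37 (adjusted p 1.00), or 0.33 in title order. Both arrays had the 2 channels at between 5.60 and 8.0 times their limits, so Bnip3 was well detected in both arrested cell types. Slc2a1 clone H3015A08 read 0.15 and -0.75 (mean -0.30, SE 0.71), and H3015G08 -0.33 and -1.32 (mean -0.82, SE 0.59). Ldha read 0.17 and -0.69 (mean -0.26, SE 0.52), and Eno1 clone H3027E09 -0.04 and -0.76 (mean -0.40, SE 0.56). In title order all these signs turn. The adjusted p of every member clone was 1.00 in both readings. For each of the 7 clones the value on array 2 was lower than on array 1 or within 0.02 of it.

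The clones of 1 gene gave a measure of error beyond duplicate spots. Duplicate spots of a member differed by a median of 0.07 in log2 ratio over 62 pairs of clone and array. The 3 clones of Eno1 spanned 0.11 to 1.20 on an array (median 0.41) and were on the same side of 0 on 8 of 9 arrays. The 2 clones of Slc2a1 were apart by 0.02 to 2.59 (median 0.48) and on the same side on 7 of 9. Where on the transcript a clone lies was not used here, and a cDNA clone can also bind transcripts of close relatives or of processed copies, of which enolase and lactate dehydrogenase have several. The part of such binding was not tested.

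Over all arrays the closest patterns among the members were those of Bnip3 with Slc2a1 and of Ldha with Eno1. Likeness was measured by the cosine of the log2 ratios over the arrays that both clones had values on, which does not change with the direction of an array. It was 0.858 between Bnip3 and Slc2a1 clone H3015A08 (8 arrays) and 0.920 between Ldha and Eno1 clone H3027E09 (9 arrays). Between Bnip3 and Ldha it was 0.178, and between Bnip3 and Eno1 clone H3027E09 -0.08. Slc2a1 clone H3015A08 had 0.328 with Ldha and 0.131 with Eno1 clone H3027E09. The other Slc2a1 clone, H3015G08, had higher values, 0.583 with Ldha and 0.482 with Eno1. Its likeness to Bnip3 was lower than the 0.858 of H3015A08, since the clone with the highest cosine was kept for each gene. These cosines include G0 MB over MB, whose values were known when the genes were chosen, and its Bnip3 ratios rest on MB signal under the limit. Among all genes compared, Slc2a1 had rank 50 in likeness to Bnip3, and Eno1 had rank 2 in likeness to Ldha. Nearest to Bnip3 among 2556 clones were Ergic3, a cargo receptor of the early secretory pathway, at 0.988, Psap, the precursor of lysosomal saposins, at 0.983, and Ctsb, the lysosomal protease cathepsin B, at 0.980. Nearest to Slc2a1 among 3404 clones were Fn1 (fibronectin) at 0.965, Cd2bp2 at 0.957 and Npc2, a lysosomal cholesterol carrier, at 0.946. For Ldha they were Kank2 at 0.948, Eno1 at 0.920 and Tkt (transketolase of the pentose phosphate pathway) at 0.896, and for Eno1 Kank2 at 0.948, the pyruvate kinase Pkm (clone H3030D10) at 0.942 and Tkt at 0.937. These values rest on 8 or 9 arrays that share libraries and are a description.

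Other genes of the response were read from lists in G0 MB over MB, in which limma's fit over all 3982 named genes had a median log2 ratio of -0.15, with 1684 genes above 0, 2298 below, and 344 higher and 499 lower at an unadjusted p under 0.05. The lists were chosen with earlier results of these data known, so the counts and p-values of each list are a description. Differences between lists were not tested. Of 35 hypoxia-induced genes other than the members, 9 had values to test: 6 were above 0 and 3 below, with a median of 0.50, and none was called (3 higher at an unadjusted p under 0.05). Ndrg1, a stress-induced gene of growth arrest, read 4.47, 4.05 and 2.03 (mean 3.52, adjusted p 0.0869), with the MB channel at the limit on 2 of 3 arrays. In title order, which changes the shared spread and not these values, the adjusted p of Ndrg1 by limma was 0.0278, under the limit for a call. Hmox1, the heme-degrading oxygenase, had a mean of 1.52 (adjusted p 0.0855), the adenylate kinase Ak4 one of 1.08 and the collagen prolyl hydroxylase subunit P4ha2 one of 0.98. All 4 were above 0 on every array. Bnip3l, the close relative of Bnip3, had a mean of 0.35 (adjusted p 0.442). Of the 3 genes below 0, Egln1, which is also on the list of oxygen-sensing genes, had a mean of -0.78 and was below 0 on every array.

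The machinery that senses oxygen was near the median of all genes, with 3 of 8 tested genes above 0, a median of -0.16 and none called (0 higher and 0 lower at an unadjusted p under 0.05). Hif1a, the regulated alpha subunit of HIF, read 0.21, -0.13 and 0.10, with a mean of 0.06 (adjusted p 0.938), and its partner Arnt had a mean of -0.13 (adjusted p 0.875). Egln1, the hydroxylase that marks HIF for degradation, had a mean of -0.78 and was below 0 on every array (adjusted p 0.281). Rbx1 and Eloc, parts of the ligase that degrades HIF, had means of -1.07 and -0.48, and the coactivator Crebbp one of 0.56. None of these passed the test.

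Glycolytic enzymes other than the members had 7 of 10 tested genes above 0, a median of 0.31 and none called (1 higher at an unadjusted p under 0.05). Hexokinase Hk1 had a mean of 1.23 (2 arrays, adjusted p 0.220), aldolase Aldoa one of 0.89 (2 arrays, adjusted p 0.267), phosphofructokinase Pfkm one of 0.71 (adjusted p 0.243) and glucose-6-phosphate isomerase Gpi1 one of 0.53 (adjusted p 0.432). Of glucose and lactate transport genes, 3 had values to test and all were above 0 (median 1.33), with none called (2 higher at an unadjusted p under 0.05). The gene at that median read from -0.38 to 3.11, with its weaker channel at the limit on 2 of 3 arrays. Txnip, which restrains glucose uptake, read 2.51 and 3.87 on its 2 arrays, with the weaker channel at the limit on 1 of them. Its adjusted p by limma was 0.0508, and 0.0222 in title order, under the limit for a call but a description as for Ndrg1. Bsg, the chaperone of lactate transporters, had a mean of 1.00 (adjusted p 0.126).

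Pyruvate oxidation and citrate cycle genes had 16 of 21 below 0, a median of -0.59 and none called (1 higher and 6 lower at an unadjusted p under 0.05). Mdh2 (malate dehydrogenase) had a mean of -1.75 on 2 arrays (adjusted p 0.0869), Fh1 (fumarase) one of -1.56 (adjusted p 0.157) and Sdhb (succinate dehydrogenase) one of -1.48 (adjusted p 0.160), while Pdhb (pyruvate dehydrogenase) had one of 2.33 on 2 arrays (adjusted p 0.145). The weaker channel of Fh1 was at its limit on 2 of 3 arrays. Pentose phosphate enzymes had 3 of 3 below 0 (median -0.14, none called, 1 lower at an unadjusted p under 0.05), with Taldo1 at -1.54. Mitophagy and BCL2-family genes split 5 above to 6 below 0 (median -0.02, none called, 2 higher and 2 lower at an unadjusted p under 0.05). Among them Map1lc3a and Map1lc3b, which coat autophagosomes, had means of 1.49 and 1.25 (adjusted p 0.169 and 0.113 by limma). Bok, a BCL2-family killer protein, was at least 1.72-fold lower in G0 MB by the mean bound over its arrays (adjusted p 0.119 by limma).

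**Figure D5:**
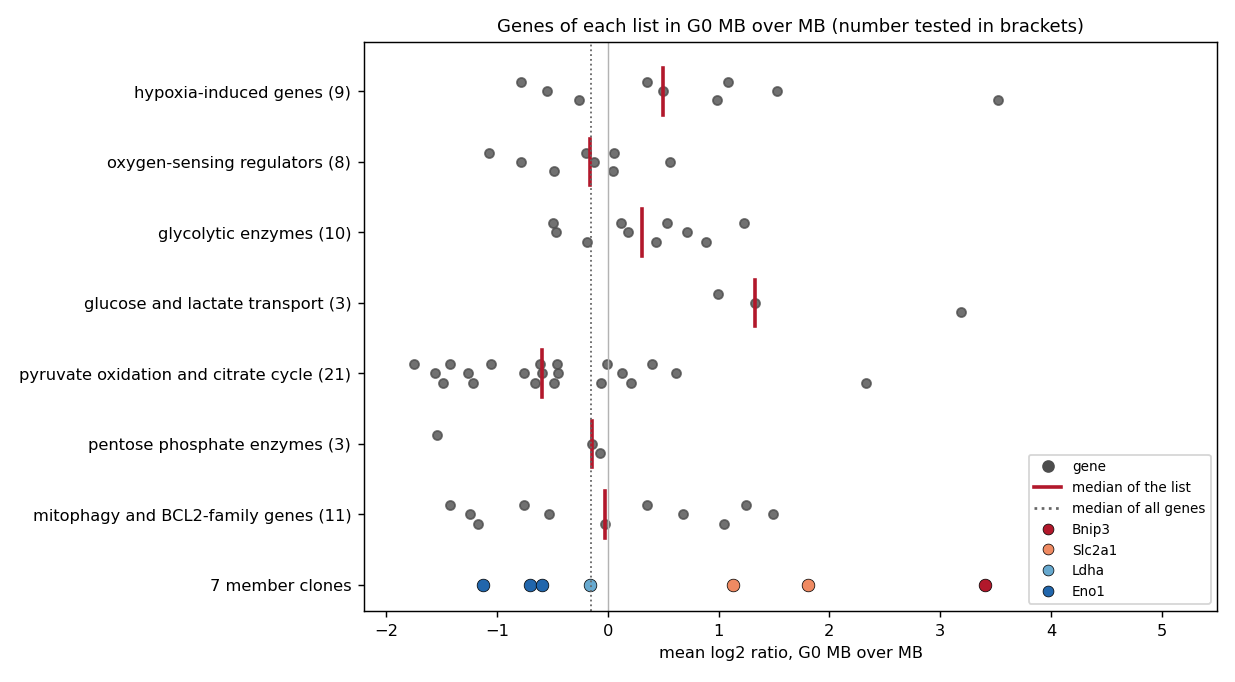
Mean log2 ratio of G0 MB over MB for the tested genes of 7 lists (grey points, number tested in brackets), the median of each list (red line), the median of all genes (dotted line, -0.15) and the 7 member clones (coloured points). Bnip3, plotted at its ratio as deposited of 3.40, lies beside Ndrg1 at 3.52, and the clones of Eno1 lie between -1.12 and -0.59.

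For MT over MB none of the genes on these lists was called in either reading. For G0 MB over MT none was called by the labelled dyes, and 1 was in title order, Hmox1, at -2.67 and -2.92 by the labelled dyes and 2.79 in title order (adjusted p 0.0651 and 0.0366). Hypoxia-induced genes had 5 of 8 below 0 there by the labelled dyes (median -0.34), against a median of -0.09 over all genes, and the reverse in title order. For G0 MB over G0 FB none was called in either reading, and the hypoxia-induced genes had a median of -0.17 against -0.05 over all genes.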

How the data were processed

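Each deposited intensity is a Cy3 or Cy5 spot value that, by the file headers and the methods, had its background subtracted in ArrayVision and was normalized by LOWESS before the authors released it. The deposited log2 values beside them are the ratio of these intensities. Versions of these tools are not given in the sources used here. Spots at or under the detection limit in both channels were left out, ratios were turned by the labelled dyes or, as the alternative reading, to the signs of the table of values deposited by the authors (title order), and duplicate spots were averaged. A clone whose weaker channel was at or under its limit on every array has only a bound, computed with the limit in its place. The bound is averaged in log2 over the arrays.

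Limma 3.58.1 (R 4.3.3; lmFit and eBayes) fitted 1 coefficient per comparison to all 9 arrays over clones with at least 2 residual degrees of freedom. Clones with values on at least 2 arrays of a comparison were tested, with the Benjamini-Hochberg adjustment over them; adjusted p 1.00 stands for values above 0.995. The limits for a call are those of the methods, in which SAM was used. Summaries used pandas 2.3.3 and numpy 2.4.6 in Python 3.11.15, and the fit was tested on simulated data. Of 11140 named clones, 6974 carried a current RefSeq symbol, 3694 were renamed through a unique synonym and 472 kept their name.

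The members and gene lists were chosen with earlier results of these data known. Named from each list were genes called and up to 4 genes with the widest mean among those on one side of 0 on every array, plus genes whose part in the pathway bears on a member (Hif1a, Arnt, Bnip3l), chosen after their values were seen; 1 gene that the rule names is not reported here. Alternatives were title order, the other array of MT over MB turned, a repeated loess, scaled arrays, no filter, separate fits, a dye term, a replicate block, the table of values, the mean over clones and leaving out each array. Replicate numbers were not taken to pair the arrays.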

Additional observations from a re-analysis of the deposited data

How the results depend on the processing

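Of 413 alternative values, 330 kept their direction and their side of the threshold or moved by less than the spread. Part of these could not move. Title order, a separate fit, the replicate block or leaving out an array of another comparison returned the same G0 MB over MB ratio for each gene. The count of 330 is therefore no measure of stability. The ratios of G0 MB to MT and to G0 FB reversed in title order, and in the table of values deposited by the authors, to 2.10 and 0.33 for Bnip3, 1.52 and 0.30 for Slc2a1, 0.78 and 0.26 for Ldha, 1.09 and 0.40 for Eno1, and 3.71 and 0.82 for Slc2a1 clone H3015G08. This is the construction of that reading. For MT over MB, turning the other array gave 0.19 for Slc2a1, 0.59 for Ldha, 0.98 for Eno1 and 0.17 for clone H3015G08, and a dye term gave 0.38, 0.054 and 0.21 for Slc2a1, Ldha and clone H3015G08; the cause was not tested. Leaving out 1 array at a time moved MT over MB between -0.28 and 0.10 for Slc2a1, -1.05 and 0.13 for Ldha and -1.44 and 0.52 for Eno1, G0 MB over MT between -1.59 and 0.0275 for Ldha, and G0 MB over G0 FB between -0.75 and 0.15 for Slc2a1 and -0.69 and 0.17 for Ldha. Scaled arrays moved Bnip3 in G0 MB over MB to 2.64. In title order the G0 MB over MT ratio of clone H3015G08 lay between 3.65 and 3.77 with 1 array left out, an alternative chosen after seeing the data (adjusted p 0.0273 to 0.133).

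Calls in G0 MB over MB numbered 27 (19 higher, 8 lower), 204 in title order, 0 with scaled arrays (337 higher and 494 lower at an unadjusted p under 0.05), 3 with no filter, 86 with a separate fit, 16 with a dye term and 22 with a repeated loess (18 higher, 4 lower). With 1 array left out they ran from 0 to 567, at 0 without array 1 or 2 of this comparison and at 567 without array 3. In MT over MB the 0 calls became 33 in title order, 33 with the other array turned, 20 in the table of values and 0 to 37 with 1 array left out. In G0 MB over MT the 2 calls became 19 in title order, 0 with scaled arrays, no filter, a separate fit, a dye term or the table of values, and 0 to 56 with 1 array left out (56 without array 2 of this comparison). In G0 MB over G0 FB the 5 calls became 3 with no filter, 0 with a separate fit, 3 in the table of values and 1 to 9 with 1 array left out. In the replicate block, calls numbered 0 in MT over MB, 10 in G0 MB over MB, 4 in G0 MB over G0 FB and 0 in G0 MB over MT. Replicate numbers were not taken to pair the arrays: none of 12 array pairs of the same number deviated together (correlations from -0.39 to 0.04). Between the comparisons of G0 MB with MT and with G0 FB, arrays of the same number are labelled with G0 MB in opposite dyes. The check therefore cannot exclude a pairing there. The detection limit bounds Bnip3 in MB, and the number of arrays limits the precision of all values.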
